A study of Mus musculus with 5 samples.

Results

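The regions described here are places in the mouse genome where YAP peaks lie close together. YAP peaks of 1 ChIP-seq library were sorted along each chromosome, and neighbours were joined where the gap from the end of a peak to the start of the next was at most 12500 bp. This gave 8041 joined regions from the 10281 YAP peaks on chromosomes 1 to 19 and X. Regions with 3 or more YAP peaks are called clusters, and there were 433 of them (5.38% of the joined regions). They held 1572 of the 10281 YAP peaks, or 15.3% (Wilson 95% interval 14.6 to 16.0%). The remaining regions were 6507 with 1 YAP peak and 1101 with 2 YAP peaks, called pairs. The clusters were chosen by the positions of YAP peaks in this library, so their YAP peak count, span and summed YAP pileup are descriptions and not findings. The TEAD, Myc and RNAPol2 lists were not used to choose them.

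The cells were immortalized mouse embryonic fibroblasts, the line 3T9MycER;YAP, which the labels list under its parental genotype 3T9MycER. They constitutively express MycER, a Myc fusion that stays inactive until its ligand is added, here 400 nM 4-hydroxytamoxifen (OHT). They were also transduced with a vector for YAP S127A, an activated mutant, which was induced with 2 µg/ml doxycycline. Both treatments were given to the cells of every peak list, so YAP is overexpressed throughout and no untreated list enters any comparison. Per the paper, the ChIP-seq panels for this line show serum-starved cultures at high confluence. Chromatin was precipitated with antibodies against YAP, TEAD, Myc and RNA polymerase II (RNAPol2), with 1 sample per antibody. YAP chromatin was fixed with a second crosslinker (DSG) and 1% formaldehyde, and the other samples with 1% formaldehyde alone, so the YAP list differs from the others in its fixation.

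YAP is a transcriptional coactivator that the Hippo kinases keep out of the nucleus. It does not bind DNA itself and reaches chromatin through DNA-binding partners, mainly the TEAD family. Much of its binding is known to lie at enhancers far from promoters, and enhancers can occur in dense groups in which several elements sit side by side. Myc binds DNA with its partner Max, mostly at open and active promoters and enhancers, and RNAPol2 marks sites where transcription starts or passes.

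The ChIP libraries held between 20441605 (Myc) and 38345189 (RNAPol2) tags, with 29528304 for YAP, and all lists were called against one control library of 60189064 tags. On chromosomes 1 to 19 and X there were 48532 TEAD, 14334 Myc and 49602 RNAPol2 peaks. No antibody had a replicate, so the comparisons carry no p-value. Intervals of shares, of differences in shares (Newcombe) and of medians (exact, from order statistics) are at the 95% level. They cover counting error only and treat peaks as independent, although neighbouring peaks share a library, a place in the genome and sometimes the same overlapping peak. Tags were not counted as molecules. With 1 library per antibody, these intervals say nothing of the spread between experiments. No genome of the files' build was used here, so regions are named by their mm9 positions and neither genes nor sequences are given.

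Most clusters were small. Exactly 3 YAP peaks were found in 277 clusters, 4 in 95, 5 in 31, 6 in 15, 7 in 9, 8 in 2, 9 in 3 and 10 in 1. Spans ran from 1000 to 47740 bp with a median of 11908 bp, and together the clusters covered 5489511 bp. The median span was 9839 bp for clusters of 3, 14001 bp for clusters of 4 and 17391 bp for clusters of 5. The median gap between neighbouring YAP peaks inside a cluster was 3082 bp (quartiles 649.5 and 7504 bp, n = 1139), against 62720 bp between all neighbouring YAP peaks on a chromosome. Of the gaps inside clusters, 244 (21.4%) were at most 500 bp, and counting peaks that close as 1 left 316 clusters. At the joining threshold, the largest gap joined was 12497 bp and the smallest not joined was 12504 bp. Of these clusters, 27 began within 50000 bp of the cluster before them.

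**Figure D1:**
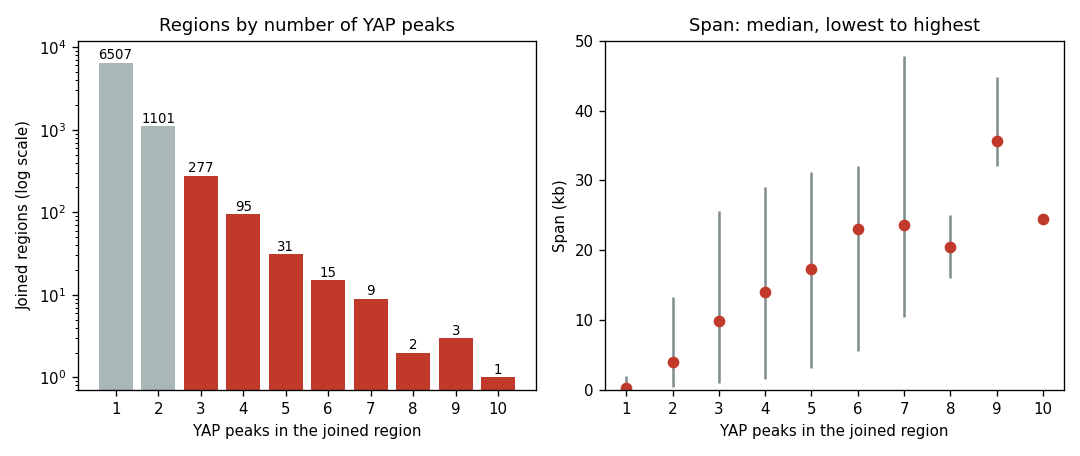
Joined regions by their number of YAP peaks (left, log scale) and the span of those regions in kb (right, point = median, line = lowest to highest). The 433 clusters, drawn as red bars, are mostly regions of 3 peaks (277). Their median span rises from 9839 bp at 3 peaks to 23632 bp at 7. Above 7 peaks there are few regions and the median does not rise steadily. Peaks at most 12500 bp apart were joined, so a region with more peaks can be longer.

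The YAP peaks of clusters were hardly higher than those elsewhere. The median pileup of a YAP peak, the number of extended tags at its summit, was 26 in clusters, 26 in pairs and 25 in regions with 1 peak. Summed YAP pileup per cluster ran from 51 to 1395 with a median of 101, against 55 for pairs and 25 for regions with 1 YAP peak. Clusters held 16.9% of all summed YAP pileup, close to their 15.3% of YAP peaks. Peaks within a cluster were often unequal. In clusters of 3, the strongest peak held a median of 43.0% of the summed pileup, and in 191 of 433 clusters (44.1%) the strongest peak was at least 2 times the weakest.

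The 3 clusters of highest summed pileup stood apart in the control library. The control level of a peak is its pileup divided by its fold enrichment, given here as a multiple of the lowest such level in the YAP list, and a cluster is given the median over its YAP peaks. This median was 39.8 times the lowest level in the cluster on chromosome 17 from 39979908 to 39985766, whose 6 YAP pileups were 259, 224, 232, 192, 243 and 245. It was 32.7 times in the cluster on chromosome 9 from 3025316 to 3036586, with YAP pileups of 182, 183, 185, 186 and 132. It was 46.5 times in the cluster on chromosome 2 from 98502368 to 98507464, with YAP pileups of 316, 281 and 242. All peaks of these clusters were high, with a pileup of 132 or more, and their highest fold enrichments were 2.01, 2.22 and 2.41. In the other 430 clusters the median was at most 2.602 times the lowest, and the highest single YAP peak was at 3.82 times. The part of the control level in these 3 clusters was not tested, and without them clusters held 16.1% of the summed YAP pileup.

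Among the rest, the highest summed pileups came from neighbouring clusters on chromosomes 15 and 9. The cluster on chromosome 15 from 11758246 to 11781877 had 7 YAP peaks with pileups of 82, 24, 116, 27, 124, 21 and 24 in order of position. The first, the third and the fifth were high and the rest stayed at 27 or less. TEAD peaks of pileup 213 and 297 covered the high YAP peaks, the single YAP peak without TEAD was the one of pileup 21, and RNAPol2 peaks covered 96.6% of the span. The cluster before it, from 11700057 to 11725080 and 33166 bp away, had 8 YAP peaks with pileups of 27, 26, 21, 49, 23, 22, 26 and 192. The last peak was far above the other 7, and the TEAD peak there was also the highest of the cluster, at 304. RNAPol2 peaks covered 13.6% of this span and none exceeded a pileup of 86.

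On chromosome 9, the cluster from 102653769 to 102687001 had 7 YAP peaks with pileups of 26, 22, 151, 24, 55, 92 and 45. Its 12 TEAD peaks summed to a pileup of 987, the highest TEAD sum of the 433 clusters. The TEAD peaks at its 3 highest YAP peaks of 151, 92 and 55 had pileups of 218, 248 and 116. The cluster from 102617308 to 102636639 lay 17130 bp before it and had YAP pileups of 27, 32, 138, 94, 22, 37 and 25. It held 12 TEAD peaks too, the highest being 298 at the YAP peak of 138 and 206 at the YAP peak of 94. A single RNAPol2 peak of 22925 bp and pileup 338 covered 99.5% of this cluster, while RNAPol2 covered 19.4% of the span of the other cluster. Myc pileup stayed at or under 43 in both.

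The cluster with the most YAP peaks lay on chromosome 15 from 78661919 to 78686338. Its 10 YAP pileups were 19, 49, 20, 66, 25, 28, 30, 49, 28 and 23, so none was very high. All 10 overlapped TEAD, 6 overlapped Myc and 9 overlapped RNAPol2. It held 15 TEAD peaks, 4 Myc peaks with a highest pileup of 82, and 6 RNAPol2 peaks with a highest pileup of 227. Clusters of 9 YAP peaks were found on chromosome 15 from 66693030 to 66725139 (YAP pileup 26 to 51) and on chromosome 19 from 47385545 to 47421184 (23 to 46) and from 46086784 to 46131611 (18 to 45). The last of these included a Myc peak of pileup 246 and RNAPol2 peaks over 57.7% of its span, yet 3 of its 9 YAP peaks had no TEAD peak. The longest cluster, on chromosome 19 from 9117098 to 9164837, spanned 47740 bp with 7 YAP peaks of pileup 17 to 42. It had 13 TEAD peaks but 1 Myc peak of pileup 24 and no RNAPol2 peak above 37.

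**Figure D2:**
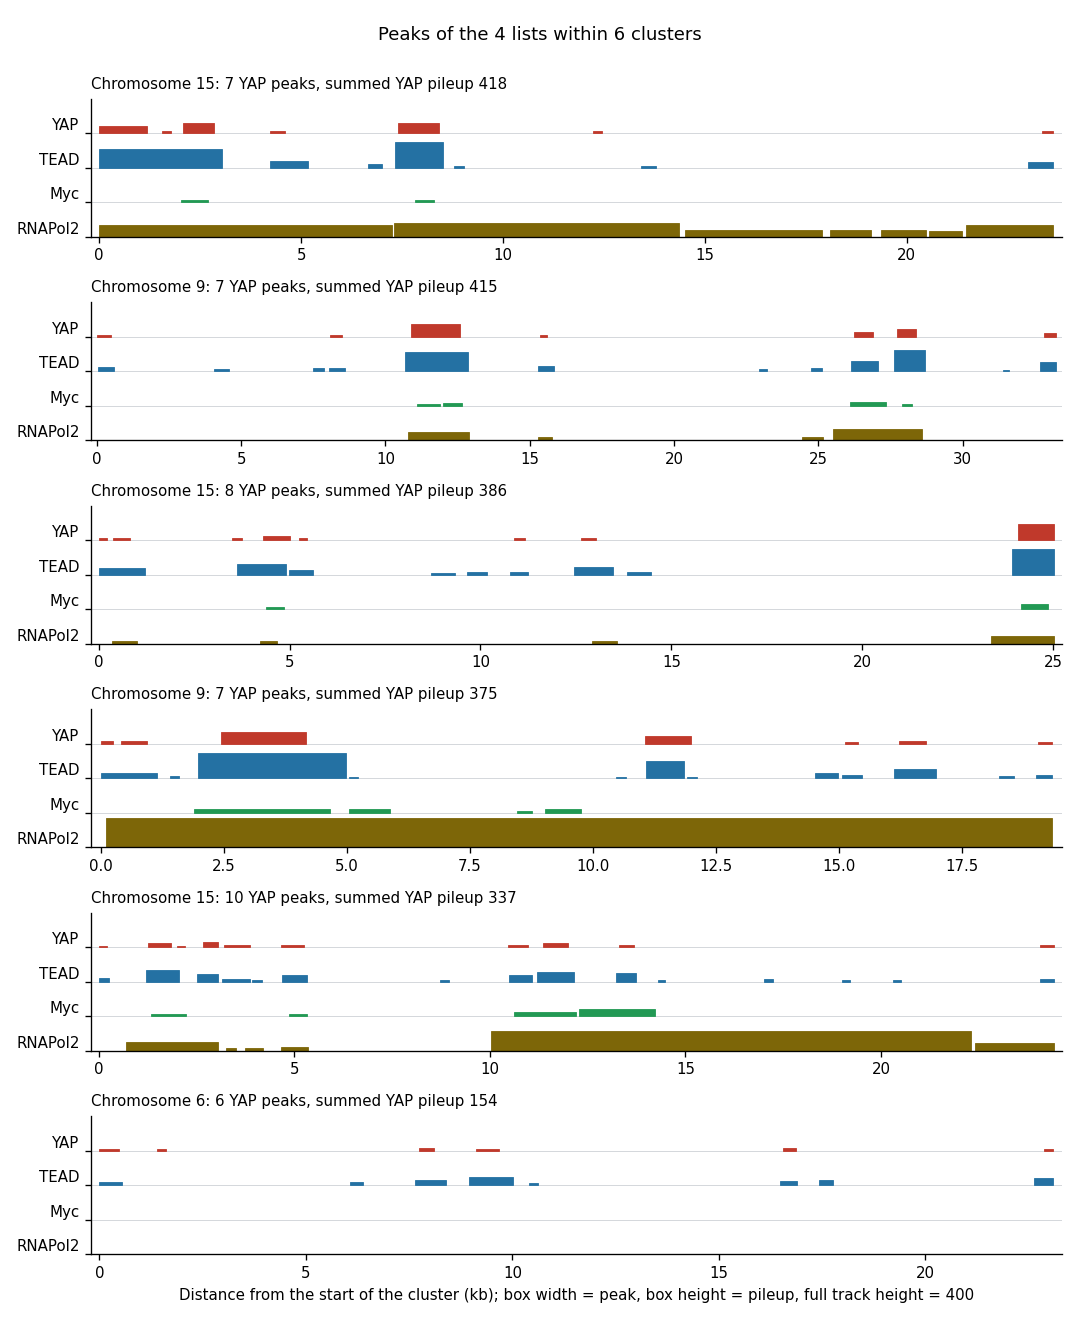
Peaks of the YAP, TEAD, Myc and RNAPol2 lists in the 5 clusters of highest summed YAP pileup among those with a control level under 10 times the lowest, and in the cluster of highest summed pileup with neither Myc nor RNAPol2. The x axis is the distance from the start of the cluster in kb, box width is the peak, and box height is its pileup on tracks of full height 400. High YAP boxes stand over high TEAD boxes, while RNAPol2 covers from 0 to 99.5% of the span.

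TEAD was found in every cluster. All 433 clusters held at least 1 TEAD peak (Wilson interval from 99.1%), against 98.5% of pairs and 90.9% of regions with 1 YAP peak, and 92.5% of joined regions of any size. This comparison favours long regions, since a longer span has more room for a peak. Counted per YAP peak, which does not depend on span, 1457 of 1572 YAP peaks in clusters overlapped a TEAD peak by at least 1 bp, or 92.7% (91.3 to 93.9%), where 91.6% of all YAP peaks did. The share was 90.9% (90.2 to 91.6%) for the 6507 YAP peaks alone in their region. The difference was 1.75 percentage points (0.204 to 3.14), and against pairs it was 0.0414 points (−1.68 to 1.70). TEAD at YAP peaks was thus near its level over the whole list, with a small difference from isolated peaks that included 0 in its interval when chromosome 15 was left out (−0.0780 to 2.92).

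Over all YAP peaks with TEAD, its height was close between the groups. The median TEAD pileup was 68 (65 to 72) in clusters, 69 in pairs and 66 (65 to 67) in regions with 1 YAP peak, and the ratio of clusters to the last was 1.03 (0.970 to 1.11). The median TEAD fold enrichment was 16.1 in clusters and 17.1 in regions with 1 YAP peak, a ratio of 0.943 (0.890 to 1.03). The pileup ratio was above 1 when only the highest YAP peak of each region was taken (1.62, 1.42 to 1.815), a peak chosen for its height. It was 1.16 (1.02 to 1.26) with a −log10 q of at least 10 and 1.1 (1.01 to 1.17) with a YAP fold enrichment of at least 5. The TEAD peaks at clustered YAP peaks were wider, with a median of 761 bp against 625 bp. Some covered several YAP peaks, since the 1457 YAP peaks overlapped 1290 distinct TEAD peaks. The median distance between the YAP and TEAD summits was 54 bp (48 to 60) in clusters and 41 bp (40 to 43) in regions with 1 YAP peak. At YAP peaks without RNAPol2 the distances were 51 bp (42 to 61) and 41 bp (39 to 42).

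YAP and TEAD heights followed each other over clusters and over pooled YAP peaks. No correlation inside a cluster was computed. Over the 433 clusters, mean YAP pileup and mean TEAD pileup at the same peaks had a Spearman correlation of 0.701, and 0.695 without the 3 clusters of high control level. Over YAP peaks with TEAD, pooled from all clusters, it was 0.645 (n = 1457). In regions with 1 YAP peak it was 0.698 (n = 5917). These are descriptions across places in the genome, and the points share their libraries and one control. In 329 of 433 clusters (76.0%), the highest YAP peak overlapped the highest of the TEAD peaks at that cluster's YAP peaks. No reference share was computed for this count. Shared TEAD peaks favour a match, and in 16 clusters 2 or more YAP peaks had TEAD and all of them shared 1 TEAD peak.

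The clusters also held TEAD peaks without YAP. Of 1756 TEAD peaks in their spans, 466 overlapped no YAP peak, and TEAD peaks covered 19.2% of the spans at 3.20 peaks per 10000 bp. To compare regions over the same length, windows of 12500 bp on each side of the highest YAP summit were taken for every joined region, and TEAD peaks without YAP were counted. At least 1 such peak was found in 345 of 433 windows at clusters (79.7%), in 71.0% at pairs and in 59.4% at regions with 1 YAP peak. The difference between clusters and single peaks was 20.3 points (16.1 to 24.0), and the mean counts were 1.84 and 1.05 TEAD peaks per window. Without chromosome 15 the shares were 79.0% and 58.8%. Windows around clusters were thus richer in TEAD peaks beyond those that carried a called YAP peak.

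A minority of clustered YAP peaks lacked TEAD. There were 115 of them in 97 clusters. TEAD overlapped 92.7% of clustered YAP peaks and 91.6% of all YAP peaks, so its lack was near the level of the whole list. The median YAP pileup of these 115 was 23 (22 to 24) against 27 (26 to 28) for the 1457 with TEAD. Regions with 1 YAP peak had the same order, with 21 without TEAD and 25 with it. The clusters with the most YAP peaks lacking TEAD were the high-control cluster on chromosome 9, the cluster of 9 peaks on chromosome 19 described above, and the cluster on chromosome 15 from 55671988 to 55699380, each with 3. In the last, YAP pileups were 33, 21, 31, 28 and 29, no TEAD peak exceeded 54 and no RNAPol2 peak was called. Several clusters had 2 such peaks. The highest summed YAP pileups among those were on chromosome 15, from 27333501 to 27364785 and from 77701958 to 77718882. In the latter, the 4 YAP pileups were 21, 20, 108 and 24.

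Myc was more frequent at clustered YAP peaks than at isolated ones. Of the 1572 YAP peaks in clusters, 658 overlapped a Myc peak, or 41.9% (39.4 to 44.3%), where 30.8% of all YAP peaks did. The share was 33.9% (31.9 to 35.9%) in pairs and 27.1% (26.1 to 28.2%) in regions with 1 YAP peak. Clusters exceeded regions with 1 YAP peak by 14.7 points (12.1 to 17.4) and pairs by 7.98 points (4.84 to 11.1). Without YAP peaks of control level over 10 times the lowest, the difference from single peaks was 14.2 points. The share was 41.3% in clusters of 3, 41.6% in clusters of 4 and 43.5% in clusters of 5 or more, with intervals that overlap. A Myc peak lay anywhere in the span of 337 clusters (77.8%), against 33.6% of joined regions of any size. As with TEAD, this count by region favours long regions with several YAP peaks.

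Myc usually reached a few of a cluster's YAP peaks and not all. It overlapped none in 103 clusters, 1 in 125, 2 in 122, 3 in 54, 4 in 20, 5 in 7 and 6 in 2. Every YAP peak overlapped Myc in 43 clusters (9.93%), which include the 3 clusters of high control level, against 16.3% of pairs and 27.1% of regions with 1 YAP peak. Clusters were thus lower by this measure, which needs more overlaps in a larger region, with a difference of −17.2 points (−19.9 to −13.8) from single peaks. After these, the highest summed pileup in that class was on chromosome 3 from 95471977 to 95500762, with 5 YAP peaks of pileup 47, 27, 39, 33 and 78. It held 4 Myc peaks of pileup 26 to 97, 4 TEAD peaks of 84 to 202, and 12 RNAPol2 peaks with a highest of 297. Next was a short cluster on chromosome 15 from 79780777 to 79783271, with YAP pileups of 51, 23 and 122 under a single TEAD peak of pileup 286. Its highest YAP fold enrichment of 36.79 was far above the median of 9.56 for the highest peak of a cluster.

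Where Myc was called, its height differed little. Median Myc pileup was 36 (35 to 39) in clusters, 35 in pairs and 33 (31 to 34) in regions with 1 YAP peak, a ratio of clusters to the last of 1.09 (1.03 to 1.26). On the fold enrichment scale the medians were 8.60 and 8.58, a ratio of 1.00 (0.933 to 1.099). YAP pileup was higher where Myc was present, at 29 against 25 in clusters and 27 against 24 in regions with 1 YAP peak. The highest YAP peak of a cluster overlapped Myc in 231 of 433 clusters (53.3%), and the other clustered YAP peaks in 37.5% (n = 1139). Both shares were above the 27.1% of regions with 1 YAP peak, while the highest YAP peak of pairs overlapped Myc in 38.1%. The highest of several peaks is itself chosen for its height.

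RNAPol2 was also more frequent at clustered YAP peaks than at isolated ones. It overlapped 1026 of the 1572 clustered YAP peaks, or 65.3% (62.9 to 67.6%), where 48.0% of all YAP peaks did. The share was 53.1% in pairs and 42.1% (40.9 to 43.3%) in regions with 1 YAP peak. The differences were 23.2 points (20.5 to 25.8) from single peaks and 12.1 points (8.97 to 15.3) from pairs. By size the share was 61.6% in clusters of 3, 70.0% in clusters of 4 and 68.7% in clusters of 5 or more. An RNAPol2 peak lay in the span of 378 clusters, or 87.3% (83.8 to 90.1%), against 48.4% of joined regions of any size. Counting by region favours clusters, since a longer span with more YAP peaks has more room for a peak.

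**Figure D3:**
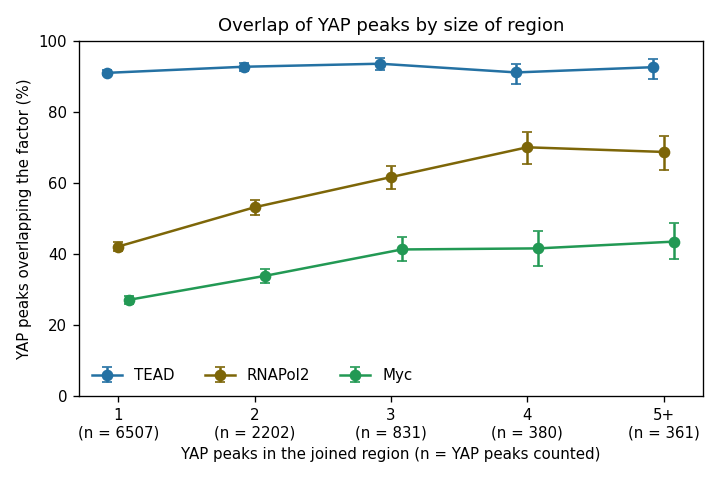
Share of YAP peaks (%) that overlap a TEAD, RNAPol2 or Myc peak, by the number of YAP peaks in the joined region, with Wilson 95% intervals and n the number of YAP peaks. TEAD stays between 90.9 and 93.5%, while RNAPol2 goes from 42.1 to 68.7% and Myc from 27.1 to 43.5% between regions of 1 and of 5 or more YAP peaks.

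Long RNAPol2 peaks bear on this count. The 1026 YAP peaks overlapped 764 distinct RNAPol2 peaks. In 62 clusters, 2 or more YAP peaks overlapped RNAPol2 and all of them shared 1 RNAPol2 peak. Clusters with several RNAPol2 peaks at their YAP peaks are not among the 62, although YAP peaks can share a peak there too. When RNAPol2 peaks wider than 5000 bp were left out, the difference from single peaks was 14.1 points instead of 23.2. Taking only the highest YAP peak of each region, RNAPol2 was present in 329 of 433 clusters (76.0%), in 58.4% of pairs and in 42.1% of regions with 1 YAP peak, although the highest of several peaks is itself chosen for its height. The other clustered YAP peaks overlapped RNAPol2 in 61.2%. RNAPol2 was absent from all YAP peaks of 56 clusters. It was present at all of them in 159 (36.7%), against 37.8% of pairs and 42.1% of regions with 1 YAP peak, a difference from the last of −5.37 points (−9.94 to −0.583). More YAP peaks have to overlap for a cluster to count here than for a region with 1 peak.

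RNAPol2 peaks at clustered YAP peaks were higher and wider. Their median pileup was 85.5 (76 to 94) in clusters, 59 (54 to 62) in pairs and 52 (50 to 54) in regions with 1 YAP peak, a ratio of clusters to the last of 1.64 (1.41 to 1.88). On the fold enrichment scale the ratio was 1.47 (1.27 to 1.65). Median width was 1439.5 bp in clusters, 1004 bp in pairs and 837 bp in regions with 1 YAP peak, a ratio of 1.72 (1.48 to 1.96). A wide peak that covers several YAP peaks is counted at each of them. Without RNAPol2 peaks wider than 5000 bp, the ratio of median pileups was 1.30.

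**Figure D4:**
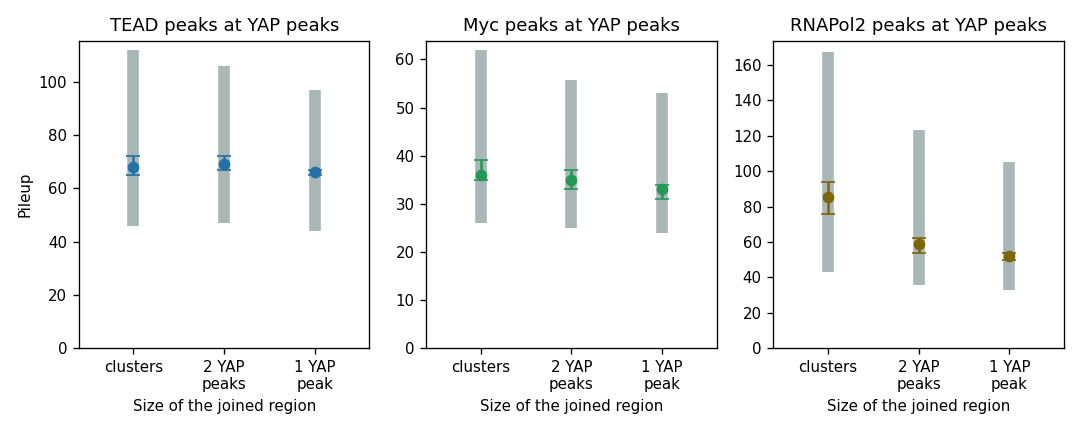
Pileup of the TEAD, Myc and RNAPol2 peaks that overlap YAP peaks, in clusters, in regions with 2 YAP peaks and in regions with 1 YAP peak. Points are medians with exact 95% intervals and grey bars the quartiles. TEAD (68, 69 and 66) and Myc (36, 35 and 33) lie close together, while RNAPol2 is 85.5, 59 and 52.

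Myc and RNAPol2 mostly came together, so each was compared at YAP peaks with and without a called peak of the other. Among YAP peaks with Myc, RNAPol2 was present at 92.4% in clusters (608 of 658) and 85.0% in regions with 1 YAP peak (1500 of 1765), a difference of 7.42 points (4.64 to 9.91). Among YAP peaks without Myc it was present at 45.7% (418 of 914) and 26.1% (1239 of 4742), a difference of 19.6 points (16.2 to 23.1). The RNAPol2 difference was therefore found on both sides of the Myc split. Among YAP peaks with RNAPol2, Myc was present at 59.3% in clusters and 54.8% in regions with 1 YAP peak, a difference of 4.49 points (0.937 to 8.0). Among YAP peaks without RNAPol2 the Myc shares were 9.16% (50 of 546) and 7.03% (265 of 3768), and the interval of that difference included 0 (−0.184 to 4.95). Against pairs, the Myc differences were 2.42 points (−1.72 to 6.54) with RNAPol2 and 1.31 points (−1.49 to 4.40) without it. The Myc difference was thus much smaller when YAP peaks were split by called RNAPol2 presence than in all YAP peaks. The height of RNAPol2 was not held fixed.

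The height of RNAPol2 was also larger in clusters within both classes. At YAP peaks with Myc, median RNAPol2 pileup was 112 (104 to 122) in clusters, 84 in pairs and 83 (79 to 89) in regions with 1 YAP peak. At YAP peaks without Myc it was 50 (44 to 55), 41 and 37 (35 to 38). Clusters had the highest median in each class, and their intervals did not overlap those of regions with 1 YAP peak.

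By the combination of factors, YAP peaks with TEAD, Myc and RNAPol2 were the most frequent kind in clusters, with 596 of 1572 (37.9%, 35.5 to 40.3%), against 22.6% in regions with 1 YAP peak. In the latter, YAP with TEAD alone was the most frequent kind, with 46.2% (45.0 to 47.4%), against 26.4% in clusters. YAP with TEAD and RNAPol2 but no Myc made up 25.4% in clusters and 18.2% in regions with 1 YAP peak. YAP with none of the other factors made up 5.15% and 7.65%.

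A smaller class of clusters had TEAD without the other factors. In 39 clusters (9.01%, 6.66 to 12.1%) the span held neither a Myc nor an RNAPol2 peak. This was rarer than in pairs (24.4%), in regions with 1 YAP peak (53.8%, 52.6 to 55.0%) and in joined regions of any size (47.4%), although a longer span has more room for a peak. The highest summed YAP pileup among them was on chromosome 6 from 17152129 to 17175223, with YAP pileups of 21, 23, 30, 26, 29 and 25. All 6 were of similar height, 5 overlapped TEAD peaks of pileup 39 to 97, and 1 had no TEAD. The next 4 were on chromosome 15, from 53373578 to 53384060, 56673124 to 56676509, 55247374 to 55269222 and 55289301 to 55300156, with summed YAP pileups of 143, 128, 119 and 119. Those starting at 56673124 and 55247374 had TEAD peaks of pileup up to 195 and 207, with YAP pileups of at most 55 and 65.

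Factor content varied with the length of a cluster. In the 67 clusters of at most 5000 bp, 55.4% (48.7 to 61.9%) of YAP peaks overlapped Myc. The Myc share was 46.8% in the 108 clusters over 5000 and up to 10000 bp, 37.6% in the 180 up to 20000 bp and 36.6% (31.8 to 41.7%) in the 78 longer ones. RNAPol2 followed the same order with 72.8% (66.4 to 78.3%), 69.5%, 63.2% and 60.3% (55.2 to 65.3%). TEAD varied from 94.4% (90.4 to 96.7%) to 90.8% (87.3 to 93.4%), with overlapping intervals. The most compact clusters thus had the largest shares of YAP peaks overlapping Myc and RNAPol2. Even in the longest, both shares were above those of isolated YAP peaks. YAP peaks that lie close together can share 1 overlapping peak, which is counted at each of them. Over all clusters, the 658 YAP peaks with Myc overlapped 567 distinct Myc peaks. The part of shared peaks in the order by length was not tested.

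In windows of 12500 bp on each side of the highest YAP summit, Myc and RNAPol2 peaks that overlapped no YAP peak were also more frequent at clusters. At least 1 such Myc peak was found at 33.5% of clusters, 25.1% of pairs and 21.3% of regions with 1 YAP peak, a difference of 12.2 points (7.80 to 16.9) between the first and the last. For RNAPol2 the shares were 52.4%, 42.7% and 34.1%, a difference of 18.3 points (13.5 to 23.1). Without chromosome 15 the RNAPol2 shares were 54.8% at clusters and 34.3% at regions with 1 YAP peak.

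Clusters were unevenly spread over chromosomes. Chromosome 15 held 119 of 433 clusters, or 27.5% (23.5 to 31.9%), but 9.59% (8.90 to 10.3%) of regions with 1 YAP peak. On it, 31.6% of YAP peaks lay in clusters, against 12.6% on all other chromosomes together. Relative to TEAD peaks there were 29.6 clusters per 1000 TEAD peaks on chromosome 15 and 19.7 on chromosome 19, which held 42 clusters. On the other chromosomes this ranged from 0.874 to 12.0, and chromosomes 12 and X had 1 cluster each. Along chromosome 15 the density was highest between 70 and 80 Mb, with 25 clusters and 53.3 per 1000 TEAD peaks, and lowest between 80 and 90 Mb, with 5 clusters and 14.9.

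The level of the control library also differed between chromosomes. Its median level at YAP peaks was 1.55 times the lowest level on chromosome 15 and 1.34 times on chromosome 19. It was 1.46 times on chromosome 10, which had 10 clusters and 4.50 per 1000 TEAD peaks. On chromosomes 1, 7, 12, 16, 18 and X it was 1.00 times, with 0.874 to 7.70 clusters per 1000 TEAD peaks. Median control levels were 1.55 for the clusters of chromosome 15 and 1.16 for those of other chromosomes. By region the medians were 1.23 in clusters, 1.21 in pairs and 1.09 in regions with 1 YAP peak. The part of the control level in the number of clusters was not tested. Leaving chromosome 15 out left 314 clusters, and RNAPol2 then differed by 26.45 points from single peaks, so the difference in RNAPol2 was as large without it.

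**Figure D5:**
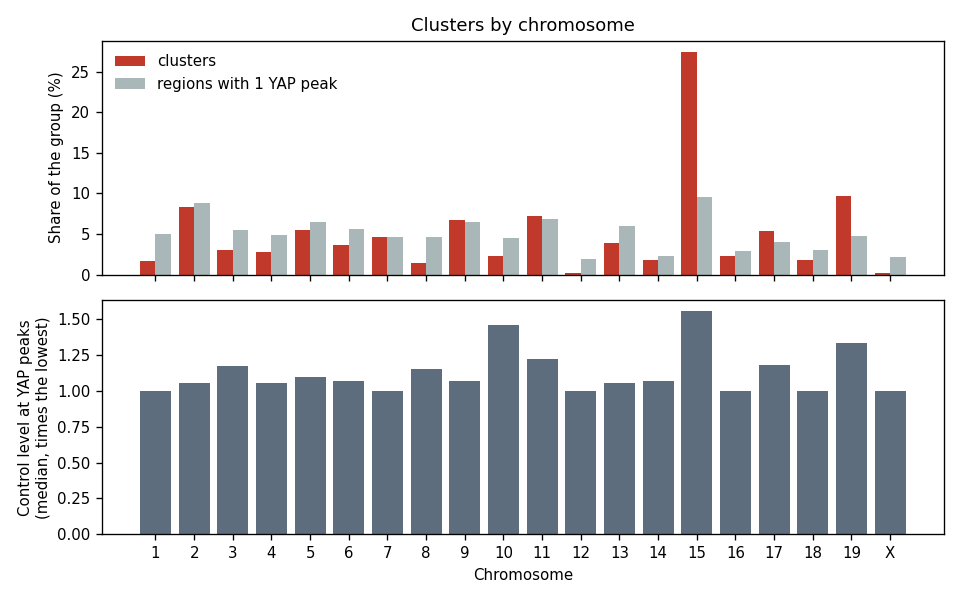
Share (%) of the 433 clusters and of the 6507 regions with 1 YAP peak on each chromosome (top), and the median control level at all YAP peaks of the chromosome as a multiple of the lowest level in the list (bottom). Chromosome 15 holds 27.5% of clusters and 9.59% of regions with 1 YAP peak and has the highest median control level, 1.55.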

How the data were processed

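ChIP-seq peak lists of YAP, TEAD, Myc and RNAPol2 were used, 1 sample each, grouped by sample title. Whether the input sample is the control of these lists is not given in the sources used here, and it was not otherwise used. Per the submitters' processing notes, mm9, MACS2 2.0.9, SAMtools and BWA 0.6.2 were used. Per the file headers, each sample had its own narrow-peak call by the authors at a p-value cutoff of 1e-05 against one control library. Tags were 51 bp and at most 2 were kept per position. The deposited pileup is the signal of extended tags at the summit. The deposited −log10 p-values and −log10 q-values were computed by the authors' caller, and q-values served only as an alternative filter. Fold enrichment, as deposited, is the ratio between pileup and a local background from the control, which cannot fall below a genome average. The scaling of the control to each library could move pileup, so levels were compared only within a list.

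YAP peaks were joined as the report describes. Lists were intersected at a minimum of 1 bp. A peak called in parts raises the YAP count, and a wide peak of another factor can overlap several YAP peaks. Groups were compared by differences in shares with Newcombe intervals and by ratios of medians, whose bounds divide the exact bounds of the medians and are therefore wide. No test over samples was possible with 1 sample per antibody. Named clusters were the 10 of highest summed YAP pileup, the 5 with most YAP peaks, the 5 longest, the 5 of highest summed pileup with neither Myc nor RNAPol2, the 5 of highest summed pileup with Myc at every YAP peak, and the 5 with most YAP peaks lacking TEAD. In the last of these lists, ties were ordered by summed YAP pileup. The members, these lists and the comparisons were chosen with earlier results of these data known. Alternatives were joining distances of 5000 and 25000 bp, 4 peaks, a −log10 q of at least 10, an overlap of 50% of the shorter peak, fold enrichment as height, omission of chromosomes, the highest YAP peak alone, pairs as the reference and standardization over 5 classes of YAP pileup. Chosen after seeing the data were omission of YAP peaks with a control level over 10 times the lowest, merging of YAP peaks at most 500 bp apart, a YAP fold enrichment of at least 5, and omission of RNAPol2 peaks over 5000 bp wide.

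The gene and promoter tables at hand are of another build than the files, so genes, promoters and sequences were not analysed here. All steps were run in Python 3.11.15 with scipy 1.17.1, pandas 2.3.3 and numpy 2.4.6, and plots were drawn with matplotlib 3.10.9. The joining, the differences in shares, the ratios of medians and the coverage of the Newcombe and median intervals were first tested on simulated data. Other steps, such as the windows, control levels and correlations, were not.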

Additional observations from a re-analysis of the deposited data

Results flagged for a closer look

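The YAP list also held 12 peaks on sequences other than chromosomes 1 to 19 and X, which entered no joined region.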

How the results depend on the processing

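No paired analysis was possible because there was 1 sample per antibody and no test over samples, and for the same reason no replicate could be left out. The Myc and RNAPol2 differences stayed above 0 under every alternative run. The 433 clusters became 203 with a joining distance of 5000 bp, 715 with 25000 bp, 156 with at least 4 peaks, 75 with a −log10 q of at least 10, 270 with a YAP fold enrichment of at least 5 and 262 without chromosomes 10, 15 and 19. Chromosome 15 then held 35.5% of clusters with 5000 bp, 35.9% with 4 peaks, 18.7% with the q filter and 18.9% with the fold filter. The Myc difference ranged from 7.98 to 26.2 points: 21.7 with 5000 bp, 11.75 with 25000 bp, 17.45 with the q filter, 26.2 for the highest YAP peak alone, 7.98 against pairs and 11.6 after merging close YAP peaks. The RNAPol2 difference ranged from 12.1 to 33.9 points: 29.5 with 5000 bp, 19.3 with 25000 bp, 27.3 with 4 peaks, 27.2 with the q filter, 26.45 without chromosome 15, 26.5 without chromosomes 10, 15 and 19, 33.9 for the highest YAP peak, 12.1 against pairs and 14.1 without wide RNAPol2 peaks. For regions with an RNAPol2 peak, a measure that favours long regions with several YAP peaks, it was 48.3 points with 4 peaks and 16.9 against pairs. The ratio of median RNAPol2 pileup was 2.19 with 5000 bp, 1.33 with 25000 bp, 1.38 without chromosomes 10, 15 and 19, 1.365 after merging and 1.30 without wide RNAPol2 peaks. The Myc ratio was 1.00 on the fold scale and 1.03 against pairs. The TEAD ratio was 1.16 with the q filter, 0.943 on the fold scale and 1.62 for the highest YAP peak. The TEAD difference was 3.49 points with 5000 bp, 5.83 for the highest YAP peak and 0.0414 against pairs, and its interval included 0 with 25000 bp, with 4 peaks, with the q filter, with the 50% overlap, without chromosome 15, after merging and against pairs. The causes were not tested. The Myc library, with 20441605 tags, was the shallowest, and a YAP peak without a Myc peak is one at which none was called at this depth.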
